A study of Mus musculus with 6 samples.

Results

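The hindlimb library of Inv1 mouse embryos was set against the hindlimb library of G4 wild-type embryos, class by class of cells, to ask what differed in gene expression outside and inside the apical ectodermal ridge (AER) when the locus of Fgf8 is rearranged. Both libraries were single-cell RNA-seq of limb buds at stage E11.5, with 1 library on each side. The pair held 12512 of the 26486 cells of the series, 6057 from G4 and 6455 from Inv1. Cells with more than 2000 detected genes were kept, 5606 from G4 and 5947 from Inv1, and 7 of the 8 annotated classes held 20 or more cells in both libraries as deposited, with 11532 kept cells in them. G4 is a hybrid mouse embryonic stem (ES) cell line, given as the strain of both groups. The study made mice from edited ES cells by aggregation, and set up line stocks with variable crosses of founders to wild-type animals. Which route gave the embryos of these libraries is not stated, so a shared strain background of the groups is not established. Inv1 is a homozygous inversion that breaks Fbxw4 and carries the AER enhancers lying in its introns away from Fgf8, into the regulatory domain of Lbx1 and Btrc. The sources used here give neither the number of embryos behind each library nor that of ES cell clones, so the embryos and the genotype cannot be told apart. The forelimb libraries of the same G4 and Inv1 groups are separate samples and are given beside the hindlimb values.

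The AER is the strip of thickened ectoderm along the distal rim of the limb bud. It secretes fibroblast growth factors (FGFs), of which Fgf8 is expressed along the whole ridge while Fgf4, Fgf9 and Fgf17 are more restricted, and these keep the mesenchyme beneath it alive, dividing and patterned from shoulder or hip to digit. Muscle precursors enter the bud from the somites under Pax3, Met and Lbx1, while the remaining mesenchyme forms skeleton and connective tissue.

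Values are UMIs (unique molecular identifiers, 1 per captured transcript) summed over the cells of a class and scaled to the total of that class and library, as counts per 1000000 UMIs (CPM). Because each side was a single library, no test between genotypes was possible and the intervals are 95% counting intervals that leave out variation between embryos. A gene was measured in a class where it had a mean of 10 CPM or more over the pair and 20 UMIs or more in all, and it is called higher or lower where the whole interval of the Inv1 over G4 ratio lay past 1.5-fold. The libraries were of like depth, with medians of 9110.5 and 8960 UMIs per cell in G4 and Inv1. Of 7029 genes measured in mesenchyme and at least 2 more classes, 0 were called in 1 direction in every class where they were measured. That rule also asks for a call in classes of few cells, so it does not show that no gene differed throughout. H19 lay above 1 and ENSMUSG00000096768 below 1 in all 7 classes, as described below.

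The share of AER cells was higher in Inv1, at 82 of 5947 cells (1.38%, 95% exact binomial interval 1.10 to 1.71) against 33 of 5606 in G4 (0.589%, 0.406 to 0.826), a ratio of 2.34 (1.55 to 3.62). In the forelimb the ratio was 2.94 (1.44 to 6.59). Dorso-ventral ectoderm had a ratio of 1.40 (1.01 to 1.95), with 95 cells in Inv1 and 64 in G4. The intervals of keratinocytes at 1.27, mesenchyme at 0.978, muscle cells at 1.14, endothelial cells at 0.733 and immune cells at 1.34 all held 1. Shares depend on which tissue was captured and on the class names, and the class of AER cells had been marked by the study with Fgf8 and En1, both of which differed between the libraries as described below. Of the markers of the AER label, 14 of 14 had UMIs in the Inv1 cells and 13 of 14 in the G4 cells, where Fgf4 was at 0, and they summed to 5097 and 11639 CPM with Fgf8 included. Of 16 mesenchyme markers no AER cell of either library carried 10 or more, and the median was 4 in both.

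AER cells differed most clearly in their FGF ligands. Fgf8 fell from 1969 UMIs in 33 G4 cells to 25 UMIs in 82 Inv1 cells, while Fgf4 and Fgf3 were seen in Inv1 and in no G4 cell, and Fgf9 was higher. Of 5610 genes measured in AER cells, 44 were called higher in Inv1 (0.784% of the genes measured) and 19 lower (0.339%). In the forelimb pair, where G4 contributed 10 AER cells, 37 of the 44 and 17 of the 19 had the same sign. Only 9 of the 44 and 3 of the 19 were also called there in that direction.

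Fgf4, a ridge ligand that in the normal limb is made in the posterior ridge, had 205 UMIs in Inv1 (308 CPM, 268 to 354) and 0 in G4, at least 27.7-fold higher if G4 is put at 3 counts, the floor used throughout. It was found in 52 of 82 Inv1 cells (63.4%, 52.1 to 73.8) and in 0 of 33 G4 cells (upper exact limit 10.6%), and the cell with the most UMIs held 7.32% of them. Among mesenchyme cells, read as the background, 3 of 5384 Inv1 cells and 0 of 5191 G4 cells carried a UMI, at median depths of 8738 and 8937 UMIs against 7470 and 7205 in AER cells. Fgf3, whose gene is the neighbour of Fgf4, had 39 UMIs in 25 Inv1 cells and 0 in G4, at least 5.27-fold higher. Both genes therefore had UMIs on the Inv1 side alone, and the forelimb repeated this with 87 Fgf4 UMIs in Inv1 and 0 in G4.

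Fgf9, expressed along the ridge from early stages, rose from 70.6 CPM (12 of 33 cells) to 302 CPM (70 of 82 cells), a ratio of 4.29 (2.67 to 7.27), with 2.14 in the forelimb. Fgf17 was too low to be measured, at 11 UMIs in Inv1 and 2 in G4. The 5 ridge FGF genes summed to 724 CPM in Inv1 and 7391 CPM in G4, a ratio of 0.0979 (0.0884 to 0.108). Without Fgf8 the other FGFs summed to 456 UMIs in Inv1 and 21 in G4, 8.80-fold higher (5.69 to 14.4) and 4.01-fold in the forelimb. The summed FGF transcripts were thus lower in Inv1 while the ligands other than Fgf8 were higher.

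Of the 82 Inv1 AER cells, 52 had Fgf4, 70 had Fgf9 and 46 had both, 43 had Fgf4 without Fgf8, and 76 had at least 1 of Fgf4, Fgf8 and Fgf9, while all 33 G4 cells had Fgf8. Fgf8 was left in 12 Inv1 cells, against 59 of 5384 Inv1 mesenchyme cells with a UMI. Lbx1, the transcription factor of migrating muscle precursors, was present in 54 Inv1 cells, with Fgf4 in 35 and with Fgf8 in 8 of them. Whether any of these pairs met more or less often than their single shares give was not tested.

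The promoters of the 3 ligands that were higher are shown because Fgf3 and Fgf4 lie side by side, with starts 22774 bp apart, and had UMIs in the same Inv1 class. The stretches run from 250 bases before to 50 bases after the start in the RefSeq annotation of GRCm38.p6, at chr7:144861136-144861435 for Fgf4, chr7:144838362-144838661 for Fgf3 and chr14:58072436-58072735 for Fgf9, all on the plus strand. Capitals mark the GC box GGGCGG and the CCAAT box on either strand, and the TATAAA box was searched in the same way with no match in these windows.
Fgf4: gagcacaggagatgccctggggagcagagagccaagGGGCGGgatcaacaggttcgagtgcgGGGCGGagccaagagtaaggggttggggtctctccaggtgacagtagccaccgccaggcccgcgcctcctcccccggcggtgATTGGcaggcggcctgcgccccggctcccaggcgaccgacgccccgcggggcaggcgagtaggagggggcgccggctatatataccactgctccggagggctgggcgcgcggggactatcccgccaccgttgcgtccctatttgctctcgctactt
Fgf3: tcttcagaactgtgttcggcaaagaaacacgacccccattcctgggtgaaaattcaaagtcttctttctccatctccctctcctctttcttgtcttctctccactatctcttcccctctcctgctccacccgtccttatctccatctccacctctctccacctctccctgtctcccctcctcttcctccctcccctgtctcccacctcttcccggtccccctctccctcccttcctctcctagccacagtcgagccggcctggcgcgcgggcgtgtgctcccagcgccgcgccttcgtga
Fgf9: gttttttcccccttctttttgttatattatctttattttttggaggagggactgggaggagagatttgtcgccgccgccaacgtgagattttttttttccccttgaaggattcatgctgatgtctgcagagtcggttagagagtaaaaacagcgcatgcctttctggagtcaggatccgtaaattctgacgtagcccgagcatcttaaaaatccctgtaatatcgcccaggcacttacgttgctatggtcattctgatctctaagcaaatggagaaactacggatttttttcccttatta
The Fgf4 window was 69.7% G and C, with 2 GC boxes and 1 CCAAT box. The Fgf3 window at 59.3% and the Fgf9 window at 42.7% held neither motif. Over 32851 RefSeq promoters of the same length the median was 52.7%, 35.7% held the GC box, 37.4% the CCAAT box and 13.6% the TATAAA box, so a match in 1 of 3 windows is a description of these windows alone.

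**Figure D1:**
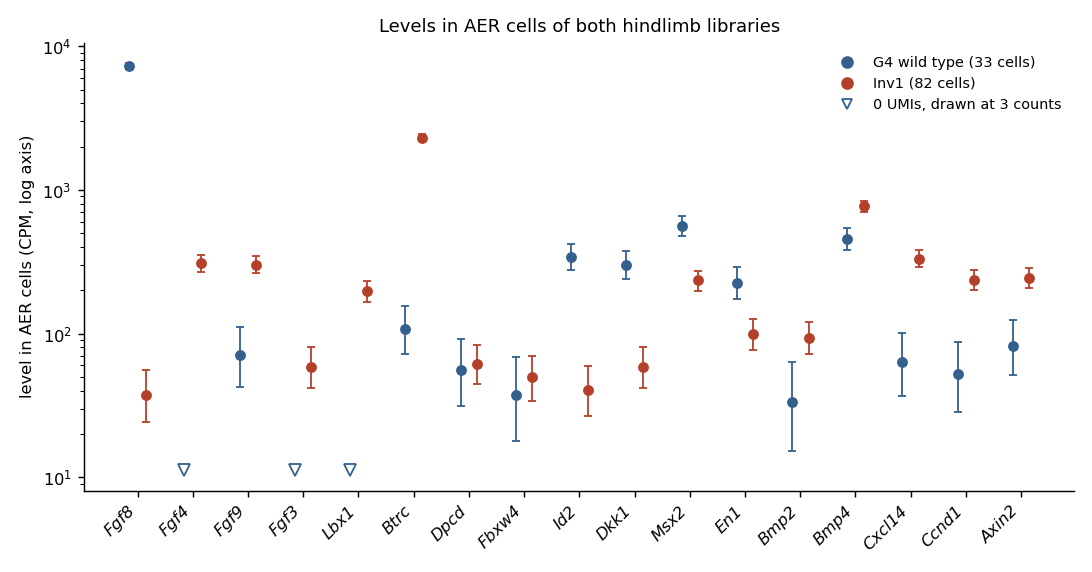
Level of each gene in AER cells of the G4 wild-type (33 cells) and Inv1 (82 cells) hindlimb libraries, in CPM on a log axis; bars are exact Poisson 95% intervals and open triangles mark 0 UMIs, drawn at the floor of 3 counts. Fgf8, Id2, Dkk1, Msx2 and En1 sit lower in Inv1, while Fgf4, Fgf9, Fgf3, Lbx1 and Btrc sit higher.

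At the locus itself, on chromosome 19 of mm9, the genes of the domain into which the enhancers were moved were higher in AER cells. Btrc, at chr19:45438224-45607831, encodes an F-box protein that brings beta-catenin and the NF-kB inhibitor to the SCF ubiquitin ligase. It had 1539 UMIs in Inv1 and 29 in G4, 2315 and 108 CPM, a ratio of 21.5 (14.9 to 32.2) against 30.7 in the forelimb. Every one of the 82 Inv1 AER cells had a Btrc UMI, with a median of 17, and 19 of 33 G4 cells did. Lbx1, at chr19:45307178-45310301, had 131 UMIs in 54 Inv1 cells and 0 in G4, at least 17.7-fold higher.

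The genes on the other side of Btrc were not called. Poll, with 10 UMIs in Inv1 and 3 in G4, was too low to be measured. Dpcd had a ratio of 1.11 (0.60 to 2.15) and Fbxw4, the gene that Inv1 breaks, 1.34 (0.64 to 3.04), with 33 UMIs in Inv1 and 10 in G4 AER cells. In mesenchyme, however, Fbxw4 had 17 UMIs in Inv1 and 386 in G4, a ratio of 0.0432 (0.0249 to 0.0701), and in muscle cells 1 against 18 UMIs. The Inv1 over G4 ratio of Fbxw4 thus differed by class, near 1 in the AER and far below 1 in mesenchyme, and in mesenchyme the gene lay under the level needed to be measured. Dpcd and Fbxw4 overlap at their ends, and reads there cannot be assigned without strand, which is not stated for these counts.

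Btrc was also called higher in the other epithelial classes. It was 2.85-fold (1.59 to 5.42) in dorso-ventral ectoderm and 15.3-fold (6.40 to 47.9) in keratinocytes, against 1.07 in mesenchyme and 1.02 in muscle cells. The ectoderm value rested on few cells, since 21 of 95 Inv1 and 13 of 64 G4 cells had a Btrc UMI (22.1% and 20.3%) and 1 Inv1 cell held 25% of its UMIs. The keratinocyte value moved to 5.80 (1.40 to 51.4) with the study's hindlimb-only annotation, which puts 11 Inv1 and 3 G4 kept keratinocytes among the AER cells, and was no longer called. Lbx1 in muscle cells, its normal site, was 0.785-fold and not called. Npm3, a nucleolar chaperone gene next to Fgf8 at chr19:45822224-45824081, fell from 338 to 82.7 CPM in AER cells, a ratio of 0.245 (0.172 to 0.346), and in mesenchyme it was 1.10-fold.

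Of 18 measured members of the list of ridge genes other than FGFs, 0 were called higher and 3 lower, and the median log2 ratio was -0.04 beside -0.01 over all measured genes (the sign turned with a marker gate for AER cells). Dlx2, a homeobox gene of the ridge, fell from 334 to 105 CPM, a ratio of 0.315 (0.227 to 0.435). Msx2, a BMP-responsive homeobox gene, was 0.416-fold (0.330 to 0.523), and En1, which marks ventral ectoderm and ridge, 0.438-fold (0.305 to 0.631). In the forelimb pair these 3 genes were at 1.58, 0.964 and 0.865, so none of them was called there. Sp8, a transcription factor required for the ridge, was 0.839-fold (0.644 to 1.10), Trp63, the master regulator of stratified epithelium, 0.827-fold (0.619 to 1.12) and Rspo2, a Wnt agonist, 1.19-fold.

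Of 13 measured genes of the list of BMP ligands, antagonists and targets, 4 were called lower and 0 higher, with a median log2 ratio of -0.51. Id2, an inhibitor of helix-loop-helix factors, showed the lowest ratio of the list, from 342 CPM in 27 of 33 G4 cells to 40.6 CPM in 19 of 82 Inv1 cells, a ratio of 0.119 (0.0744 to 0.184). Dkk1, a secreted Wnt antagonist that is induced by BMPs, was 0.195-fold (0.130 to 0.289), and Id3 0.382-fold (0.307 to 0.475). The ligand Bmp4 was 1.69-fold (1.38 to 2.07) and Bmp2 2.79-fold (1.38 to 6.39), each with an interval above 1 that reached under 1.5. In the forelimb the list had a median of -0.07, with Id2 at 0.763, Id3 at 1.40 and Dkk1 at 0.429, and the difference between the limbs was not tested.

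**Figure D2:**
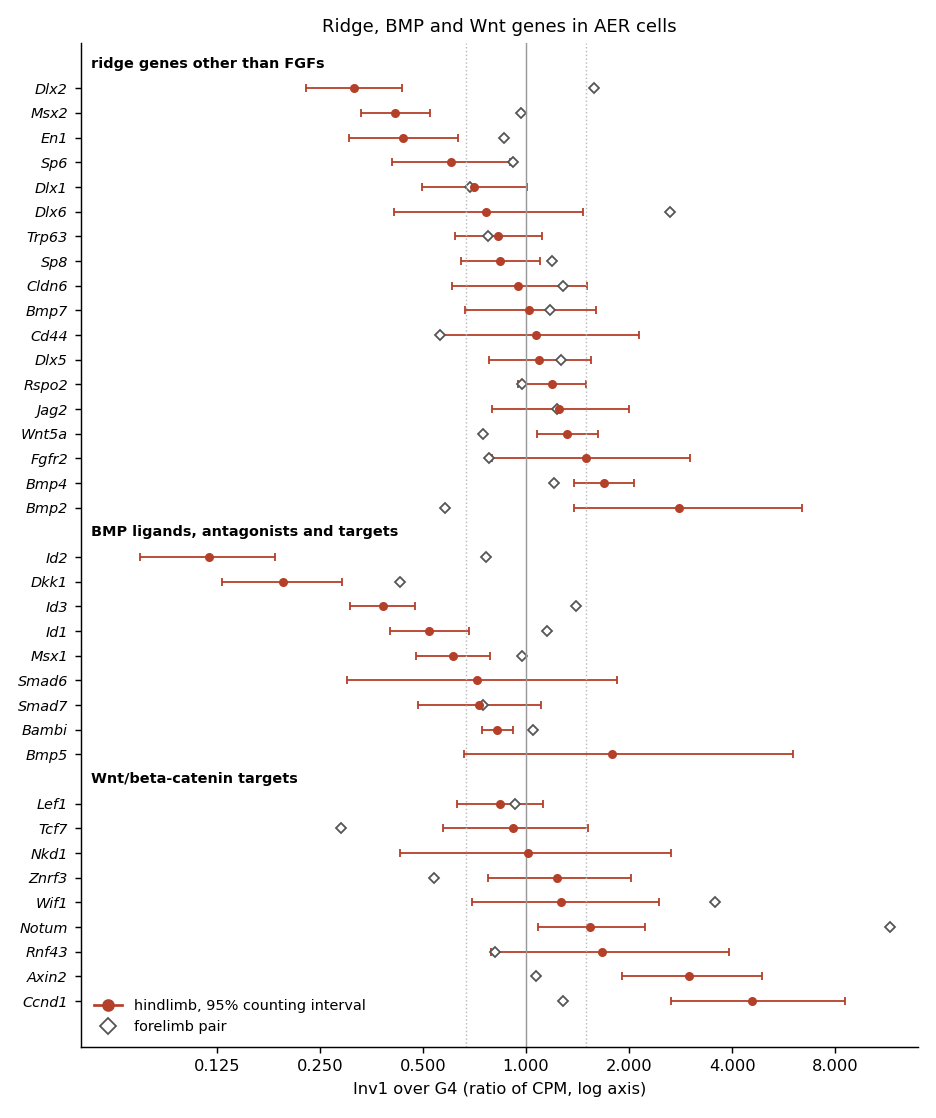
Inv1 over G4 ratio of CPM in AER cells on a log axis for measured genes of the lists named in bold, with 95% counting intervals (hindlimb) and open diamonds for the forelimb pair where it held 20 UMIs or more; dotted lines mark 1.5-fold. Id2, Dkk1, Dlx2, Id3, Msx2 and En1 lie whole below the lower dotted line, and Axin2 and Ccnd1 whole above the upper one.

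Of 11 measured Wnt/beta-catenin targets, 2 were called higher and 1 lower, with a median of 0.28. Axin2, the feedback inhibitor that reads out the pathway, rose from 81.7 to 244 CPM, a ratio of 2.98 (1.90 to 4.89), and Ccnd1, the G1 cyclin, from 52.0 to 238 CPM, a ratio of 4.57 (2.65 to 8.55). The gene called lower was Dkk1. In the forelimb Axin2 was at 1.07 and Ccnd1 at 1.28. Among 9 measured FGF/ERK feedback targets the one called was Phlda1, 4.46-fold higher (2.26 to 10.0), and the list median was 0.73. In the forelimb the medians were -0.14 for the Wnt targets and -0.21 for the feedback targets. The log2 ratios behind the medians had 0.5 counts added per gene and library. The 10 G4 AER cells of the forelimb held fewer UMIs in all than the 39 Inv1 cells. Genes of few UMIs were therefore pulled below 0 there, and Pdzd7, with 0 UMIs in both, stood at -2.415. The sign of these forelimb medians thus cannot show a difference between the limbs. Of the feedback targets, Dusp6 was 1.62-fold (0.645 to 4.85) and Spry2 0.727-fold (0.485 to 1.11). Of 10 measured SCF ubiquitin ligase genes, the partners of Btrc, 0 were called, as of 17 proliferation genes, whose median was -0.28 and 0.35 in the forelimb. Of 9 measured dissociation stress genes Egr1 was called higher at 3.02-fold, and its part in the other values was not tested.

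Ranked by the interval bound nearest to 1, the genes named as higher in AER cells were led by Fgf4 and Fgf3, followed by genes of varied function. Tent5a, a cytoplasmic poly(A) polymerase, rose from 85.4 CPM in 14 of 33 cells to 522 CPM in 68 of 82 cells, a ratio of 6.11 (4.01 to 9.77), with 0.835 in the forelimb. Cxcl14, a chemokine made by surface epithelium, was 5.27-fold (3.21 to 9.20) and 5.11-fold in the forelimb, though 1.62-fold with the marker gate. Aox3, an aldehyde oxidase, was 4.82-fold and 2.69-fold in the forelimb. Gcg (proglucagon), Ambn (the enamel protein ameloblastin) and Tafa1 (a secreted chemokine-like protein) had 38, 37 and 30 UMIs in Inv1 and 0 in G4, spread over 18, 21 and 24 cells. Fbln2, an extracellular matrix glycoprotein, had 55 UMIs against 1, and Dlk1, an imprinted Notch-pathway ligand, 44 against 1.

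Of the genes named as lower, Odc1, the first enzyme of polyamine synthesis, fell from 583 to 179 CPM, a ratio of 0.307 (0.240 to 0.392). With cells over 3000 genes alone it was 0.488 (0.318 to 0.756), and in the forelimb 0.667 (0.453 to 1.01), neither of them called. Wnt4 was 0.270-fold (0.161 to 0.446), but 0.678 with the marker gate, where its interval came within 1.5-fold. Peg3, an imprinted zinc-finger gene, was 0.367-fold and 0.303-fold in the forelimb, and Cited4, a transcriptional co-regulator, had 6 against 18 UMIs. The marker gate, which takes 117 Inv1 and 61 G4 cells of the epithelial classes by ridge genes other than Fgf8 and En1, moved Id2 to 0.232 and Npm3 to 0.427 and kept both called.

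Dorso-ventral ectoderm, which covers the bud around the ridge, differed less. Of 7332 measured genes 25 were called higher in Inv1 (0.341%) and 10 lower (0.136%). In the forelimb 16 and 8 of these had the same sign, and 1 and 2 were also called in that direction. Msx2 was the leading gene among those lower, from 171 to 46.2 CPM, a ratio of 0.270 (0.189 to 0.379), and the BMP list had a median log2 ratio of -0.68 beside -0.03 over all genes, with 2 of 11 measured members above 1. Neither was repeated in the forelimb, where Msx2 was at 0.974 and the list median at -0.05. Gpx2, a glutathione peroxidase of epithelia, was 0.263-fold, and Sct (secretin) 0.396-fold and 0.467-fold in the forelimb.

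Among genes higher in this ectoderm, Nrp2, a semaphorin and VEGF receptor, rose from 20.6 CPM to 105 CPM, a ratio of 5.10 (3.00 to 9.25), but was 0.524 (0.319 to 0.864) in the forelimb. Cald1, an actin-binding protein, was 2.29-fold (1.90 to 2.79) and found in 87 of 95 Inv1 cells. Rspo3, a Wnt agonist, was 4.73-fold and Cxcl12, a chemokine of mesenchyme, 3.98-fold. In the forelimb Cald1 was at 1.13, Rspo3 at 0.759 and Cxcl12 at 1.82, and none was called. Ebf1 had 26 against 2 UMIs, yet 61.5% of those in Inv1 came from 1 cell. Rspo3 and Ebf1 were also called higher in Inv1 mesenchyme, at 1.60-fold and 1.54-fold, and the part of mesenchymal RNA in these ectoderm values was not tested.

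Keratinocytes, the outer flattened layer with 39 Inv1 and 29 G4 cells, had 5479 measured genes with 19 called higher (0.347%) and 18 lower (0.329%). Krt17, a keratin of early epidermis and periderm, rose from 271 CPM to 1750 CPM, a ratio of 6.46 (5.21 to 8.09) and 4.71 without the cell with the most UMIs in each library. S100a14 had 41 UMIs in 12 Inv1 cells and Cldn8, a tight-junction claudin, 34 in 17 cells, both with 0 in G4. In the forelimb S100a14 again had UMIs on the Inv1 side alone (58 against 0), while Krt17 was 1.55-fold and Cldn8 1.03-fold, neither called. On the lower side Fgf8 had 2 against 50 UMIs, the latter from 3 of 29 G4 cells with 46.0% of them in 1 cell. Bhlha9, a helix-loop-helix gene of the ridge, had 3 against 27, and Cxcl14 29 against 97, the opposite direction to that in AER cells. In the forelimb these 2 were at 1.58 and 1.30. Under the hindlimb-only annotation, which moves the cells closest to the ridge out of this class, Cxcl14 stood at 0.0591.

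Mesenchyme, with 5384 Inv1 and 5191 G4 cells, had the narrowest intervals, with the 5th and 95th percentiles of its measured log2 ratios at -0.16 and 0.27. Of 7946 genes, 24 were called higher (0.302%) and 21 lower (0.264%), and 13 of the 24 and 18 of the 21 kept their sign in the forelimb. There 4 of the 24 and 9 of the 21 were also called in the same direction. Proximal limb genes were among the 21 called lower.

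Of 13 measured proximal limb genes, 5 were called lower, 0 higher and 1 had a ratio above 1, with a median log2 ratio of -0.44 beside 0.04 over all measured genes and -0.25 in the forelimb. Meis1 and Meis2, homeobox genes that define the proximal segment, fell from 18.9 to 8.51 CPM and from 77.0 to 37.8 CPM, ratios of 0.449 (0.400 to 0.503) and 0.490 (0.464 to 0.518). Irx3, an Iroquois homeobox gene of the proximal anterior bud, was 0.408-fold (0.363 to 0.458), and Pkdcc, a secreted tyrosine kinase of cartilage development, 0.520-fold (0.485 to 0.558). Hoxc9 was at 0.603. In the forelimb Meis1 and Meis2 were also lower, at 0.504 and 0.705, while Irx3 was at 0.934 and Pkdcc at 1.08.

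The share of cells moved with the levels. Meis2 had a UMI in 1020 of 5191 G4 cells (19.7%) and in 525 of 5384 Inv1 cells (9.75%), and after thinning each cell to 4000 UMIs the shares were 14.3% and 6.41%. Among muscle cells, at median depths of 16663 and 15258 UMIs against 8937 and 8738 in mesenchyme, 20 of 221 G4 and 18 of 268 Inv1 cells had a Meis2 UMI. Meis1 was found in 11.2% and 4.96% of mesenchyme cells. The sources used here do not give how much of the proximal bud was dissected, so a smaller proximal share and less RNA per proximal cell cannot be told apart.

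Distal limb genes did not move as a list, with 0 of 13 called and a median of -0.04 (above 0 when the mean over cells was taken). Hoxd13 and Hoxa13, which pattern the autopod, were 1.40-fold (1.35 to 1.44) and 1.37-fold (1.32 to 1.43), with 47.8% of Inv1 and 34.3% of G4 cells carrying Hoxd13. Lhx2 and Msx1, genes of the distal mesenchyme that respond to the ridge, were at 0.765 (0.733 to 0.799) and 0.742 (0.717 to 0.768). Members of 1 list thus lay on both sides of 1, with intervals that did not hold 1. In the forelimb Hoxd13 was at 0.833 and Hoxa13 at 0.891.

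Feedback targets of FGF signalling, read over the whole mesenchyme class and not only the part beneath the ridge, had 0 of 10 members called. Their median was -0.04, with -0.33 in the forelimb. The direct target Dusp6 was 0.779-fold (0.744 to 0.817), Etv4 0.757-fold (0.686 to 0.836) and Etv5 0.771-fold (0.697 to 0.853), values that the forelimb repeated at 0.703, 0.784 and 0.781. Spry2 went the other way, at 1.25-fold (1.19 to 1.31), and 1.24 in the forelimb. These 4 genes differed by less than 1.5-fold over the whole class. The 0.0979-fold ratio of summed ridge FGF transcripts is scaled to the UMIs of AER cells, whose share was 2.34-fold higher in Inv1. The ratios are therefore not on the same scale, and a link between them was not tested.

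Of 10 measured Shh pathway genes 0 were called, with a median of 0.13 in the hindlimb and -0.50 in the forelimb. Grem1, the BMP antagonist that links the posterior mesenchyme to the ridge, was 1.55-fold (1.43 to 1.69) and 0.518-fold in the forelimb, and Gli1, the pathway's transcriptional readout, 1.41-fold and 0.790-fold. Shh itself had 210 UMIs in 84 Inv1 cells and 416 in 159 G4 cells, a ratio of 0.495, but was under the level needed to be measured. Among 8 chondrogenic genes 0 were called, Sox9 being at 0.904 and Col2a1 at 0.784.

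**Figure D3:**
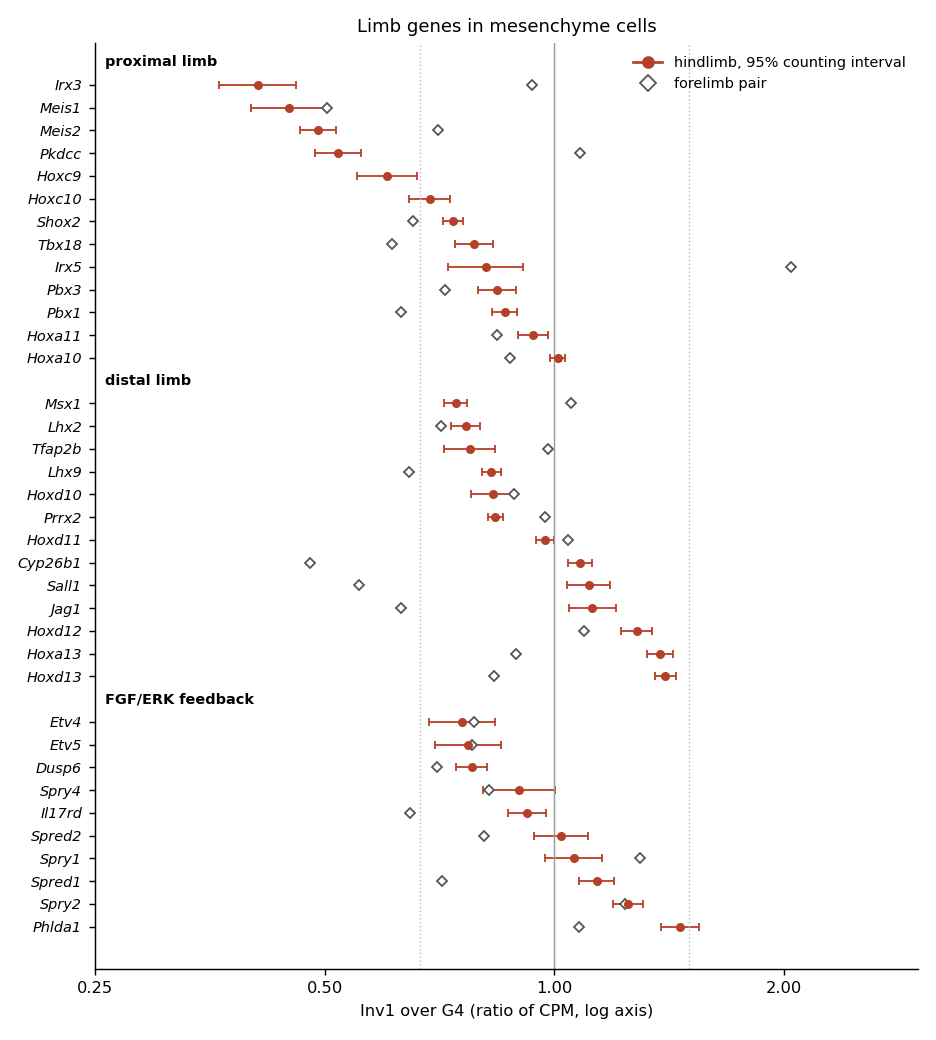
Inv1 over G4 ratio of CPM in mesenchyme cells on a log axis for measured proximal, distal and FGF/ERK feedback genes, with 95% counting intervals (hindlimb) and open diamonds for the forelimb pair where it held 20 UMIs or more; dotted lines mark 1.5-fold. Irx3, Meis1, Meis2, Pkdcc and Hoxc9 lie whole below the lower dotted line, and no distal or feedback gene lies whole past either line.

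Other genes named as lower in mesenchyme included Asb4 (0.551-fold, 0.198 in the forelimb), Hoxc6 (0.521, 0.260), Hoxd9 (0.533, 0.542) and Pmaip1, a pro-apoptotic p53 target (0.541, 0.361). Itm2a, a membrane protein gene of the myogenic list, was 0.507-fold. Tcf15 and Lix1 were lower both here, at 0.541 and 0.610, and in muscle cells, at 0.480 and 0.480.

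On the higher side Egr1, an immediate-early gene induced by growth factors and by dissociation, rose from 565 to 1854 UMIs, a ratio of 3.22 (2.93 to 3.54) and 3.28 in the forelimb, and Ccn1, a matricellular protein, was 1.99-fold and 2.70-fold. Of 12 measured dissociation stress genes Egr1 was the one called, and Fos was 1.27-fold, so that the part of handling in the Egr1 value was not tested. Epha3, an ephrin receptor, was 2.75-fold, Adamts1, a metalloprotease, 2.37-fold, Shisa2 2.14-fold and Sulf1, an editor of heparan sulphate, 1.98-fold. In the forelimb these 4 were at 0.434, 1.01, 0.902 and 0.974. Has2, the hyaluronan synthase, was 1.90-fold and 1.17-fold in the forelimb.

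Muscle cells (268 in Inv1 and 221 in G4) held the most uneven split of calls. Of 7326 measured genes 53 were called higher in Inv1 (0.723%) and 6 lower (0.0819%), with 48 of 53 and 6 of 6 of the same sign in the forelimb and 27 of the 53 also called higher there. Of the 53 genes, 14 were members of the list of sarcomere genes.

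All 16 sarcomere genes were measured, all had a ratio above 1 and 14 were called higher, with a median log2 ratio of 0.94 (1.27 in the forelimb) beside 0.04 over all measured genes. Myl4, an embryonic myosin light chain, rose from 46.4 to 167 CPM, a ratio of 3.59 (3.05 to 4.25), and Myh3, the embryonic myosin heavy chain, from 44.4 to 134 CPM, a ratio of 3.02 (2.55 to 3.61). Actc1, the embryonic actin and among the most abundant of the list, was 1.90-fold (1.82 to 1.98), Tnnc2 2.73-fold and Neb, the giant thin-filament protein, 2.93-fold. Ttn was 2.46-fold in the hindlimb and 0.806-fold in the forelimb, the single member under 1 there, and Neb was at 1.04.

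Casq2, the calcium-binding protein of the sarcoplasmic reticulum, had 103 UMIs in 20 Inv1 cells (7.46%) and 0 in 221 G4 cells, at least 30.1-fold higher. Actn2, the Z-disc actinin, was 4.49-fold (3.31 to 6.21) and Sln, a regulator of the calcium pump, 3.90-fold, with 5.18-fold and 23.0-fold in the forelimb. The share of cells with a UMI varied between genes: Myl4 had UMIs in 25 of 268 Inv1 cells (9.33%) and 12 of 221 G4 cells (5.43%), and Actc1 in 35.1% and 24.9%. Among mesenchyme cells Myl4 was seen in 50 of 5384 Inv1 and 14 of 5191 G4 cells.

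Dissociation stress genes moved in the same class: 2 of 12 measured, Hspb1 at 1.93-fold and Junb at 2.29-fold, were called higher, with a list median of 0.47 (0.31 in the forelimb), and their part in the sarcomere values was not tested. Of 15 measured regulators and markers of the muscle lineage 0 were called, with a median of 0.17 (-0.19 in the forelimb). Pax3, the factor of migrating precursors, was 0.627-fold (0.539 to 0.728), and Eya1 0.815-fold, while the differentiation factors Myod1 and Myog were 1.33-fold (1.23 to 1.44) and 1.41-fold (1.32 to 1.51) and Mymk, which drives fusion, 1.59-fold (1.22 to 2.09). Among the members named here, the precursor genes Pax3 and Eya1 lay below 1 and the 3 differentiation genes above it. Their intervals did not clear 1.5-fold. Other members of the list are not described here, so these values do not give a direction for the list. Pax3 was found in 134 of 268 Inv1 and 146 of 221 G4 cells.

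**Figure D4:**
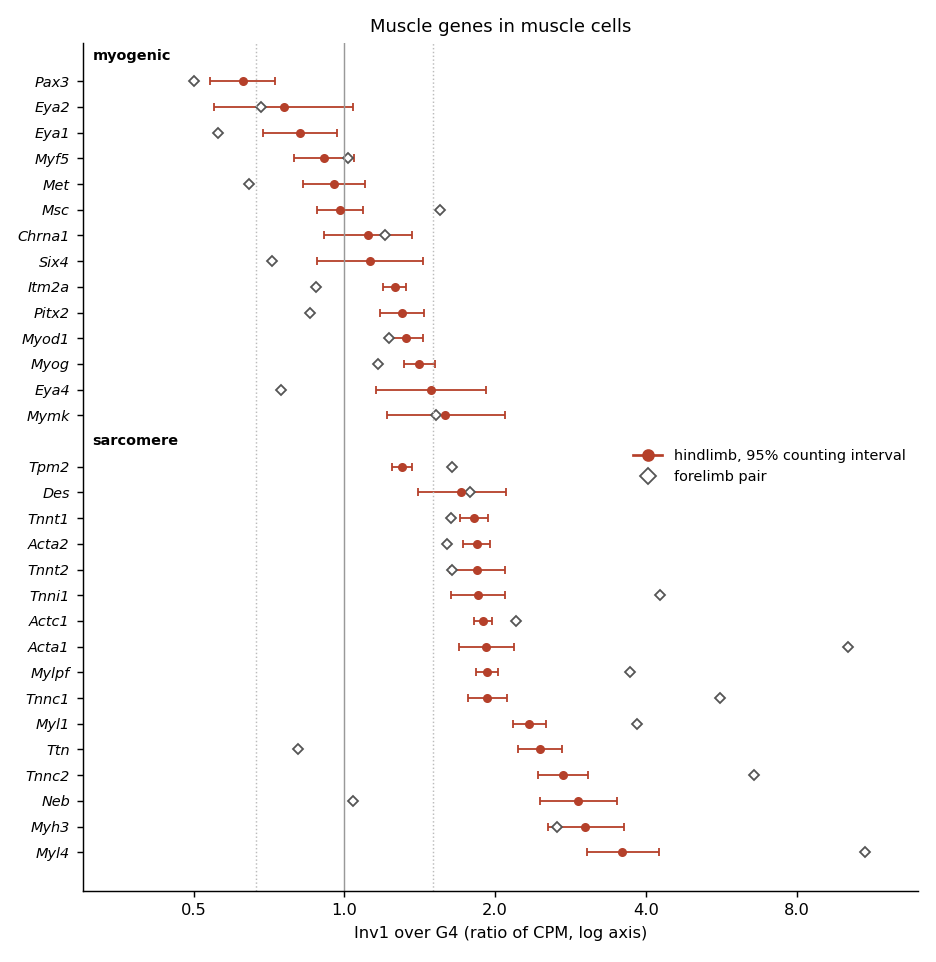
Inv1 over G4 ratio of CPM in muscle cells on a log axis for 14 of the 15 measured myogenic genes and the 16 sarcomere genes, with 95% counting intervals (hindlimb) and open diamonds for the forelimb pair; dotted lines mark 1.5-fold. All 16 sarcomere genes lie above 1, the lowest being Tpm2 at 1.30, and the myogenic genes run from Pax3 at 0.627 to Mymk at 1.59.

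Besides Lbx1, given above, the study tied 5 genes to muscle phenotypes, drawn from AER cells of its Dup mutant. It also reported myogenic terms for Inv1 AER cells, and its statement concerned AER cells rather than muscle cells. In muscle cells 3 of the 5 were measured and 0 were called. In AER cells Mapk14, a stress-activated kinase, at 2.33 (0.796 to 9.27) and Dnm2, a membrane-scission GTPase, at 1.38 (0.488 to 4.77) were measured and not called, with 0.422 and 0.413 in the forelimb. In muscle cells Hoxa13, a distal homeobox gene also used by distal muscle precursors, was 3.11-fold (2.21 to 4.45) in the hindlimb and 0.672-fold in the forelimb. Genes called lower in muscle cells besides Tcf15 and Lix1 included Sp5, a Wnt target, at 0.475 (0.387 to 0.582) and 0.419 in the forelimb.

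Endothelial cells (35 in Inv1, 45 in G4) had 6889 measured genes, 31 called higher (0.450%) and 9 lower (0.131%), of which 8 and 5 kept their sign in the forelimb. Scx, a tendon factor, had 18 against 3 UMIs, Id2 was 3.10-fold, the reverse of its direction in AER cells, and Cdh2 was 0.183-fold with 6 against 50 UMIs. Immune cells (27 in Inv1, 19 in G4) had 4065 measured genes, 50 called higher (1.23%) and 34 lower (0.836%), of which 17 and 6 kept their sign. The chemokine Ccl4 had 321 UMIs in 14 Inv1 cells and 0 in G4, but 0 against 25 in the forelimb, and the platelet gene Ppbp, at 0.194 with UMIs in 3 cells of each library, turned to 2.27 without the cell with the most UMIs in each library.

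Across classes, the imprinted non-coding RNA H19, at chr7:149761434-149764048 of mm9, was called higher in Inv1 in 5 of 7 classes, and its ratios in all 7 lay above 1. It rose from 111 to 411 CPM in mesenchyme (3.69-fold, 3.59 to 3.80), from 203 to 601 CPM in muscle cells (2.97-fold, 2.74 to 3.22) and from 157.5 to 571 CPM in endothelial cells (3.63-fold, 2.99 to 4.43). In keratinocytes the ratio was 17.6 (11.3 to 28.9), but 8.86 as a mean over cells, 148 over 3000 genes and 5.61 in the forelimb. In AER cells it was 1.67 (0.789 to 3.92), which was not called. The forelimb repeated the mesenchyme and muscle values at 2.45 and 3.10. Igf2, the growth factor gene that shares the imprinted domain of H19, was 0.574-fold (0.538 to 0.612) in mesenchyme, where it was called, and 0.442-fold in the forelimb.

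In muscle cells the difference lay in how many cells carried H19. It was found in 98.5% of Inv1 and 41.2% of G4 muscle cells, and the cells that carried it had medians of 9 and 8 UMIs. Immune cells, where H19 is low, had it in 22.2% and 15.8%, at median depths of 11882 and 11743 UMIs against 15258 and 16663 in muscle cells. Mest, an imprinted gene of another chromosome that is expressed from the paternal copy where H19 is expressed from the maternal one, was found in 97.0% and 69.2% of muscle cells. Read together, 257 of 268 Inv1 muscle cells had both transcripts (95.9%, 92.8 to 97.9), whereas 27 of 221 G4 cells had both (12.2%, 8.21 to 17.3), 64 had H19 without Mest and 126 had Mest without H19.

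In dorso-ventral ectoderm 0 of 64 G4 cells had both (upper exact limit 5.60%), with 24 carrying H19 and 37 carrying Mest alone, and 81 of 95 Inv1 cells had both. In mesenchyme the share with both was 6.13% in G4 (318 of 5191) and 65.7% in Inv1 (3536 of 5384). In G4 endothelial cells 12 of the 14 cells with H19 also had Mest, and 12 of 45 G4 and 34 of 35 Inv1 cells had both. Mest was high in this class, with a median of 23 UMIs in the G4 cells that carried it. The presence of a UMI therefore cannot show whether these cells were split. In the forelimb 24 of 112 G4 and 156 of 168 Inv1 muscle cells had both. Over the cells of 1 library, which share its free RNA, the Pearson correlation of log UMIs of H19 and Mest in muscle cells was -0.78 in G4 and 0.12 in Inv1. In endothelial cells it was -0.32 in G4 and 0.38 in Inv1. These cell sets were defined after seeing the data, and neither embryos nor clones can be assigned to them.

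The muscle and ectoderm results were also read against those G4 sets. Set against the G4 muscle cells with Mest and without H19, the sarcomere median was 1.24, and against those with H19 and without Mest 1.25. Over all G4 muscle cells it was 0.94. Both sets leave out the 27 G4 cells with both transcripts and the 4 with neither. The part of those cells in the higher medians was not tested. The number of genes called in muscle cells was 75 and 60 beside 59 in all. H19 itself was 1.03-fold against the second set, which largely follows from choosing those cells for their H19 UMIs. Against that set the lower calls of Lix1, at 0.839 (0.509 to 1.44), and Tcf15, at 0.586 (0.465 to 0.742), were lost. In ectoderm 29 and 32 genes were called beside 35.

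**Figure D5:**
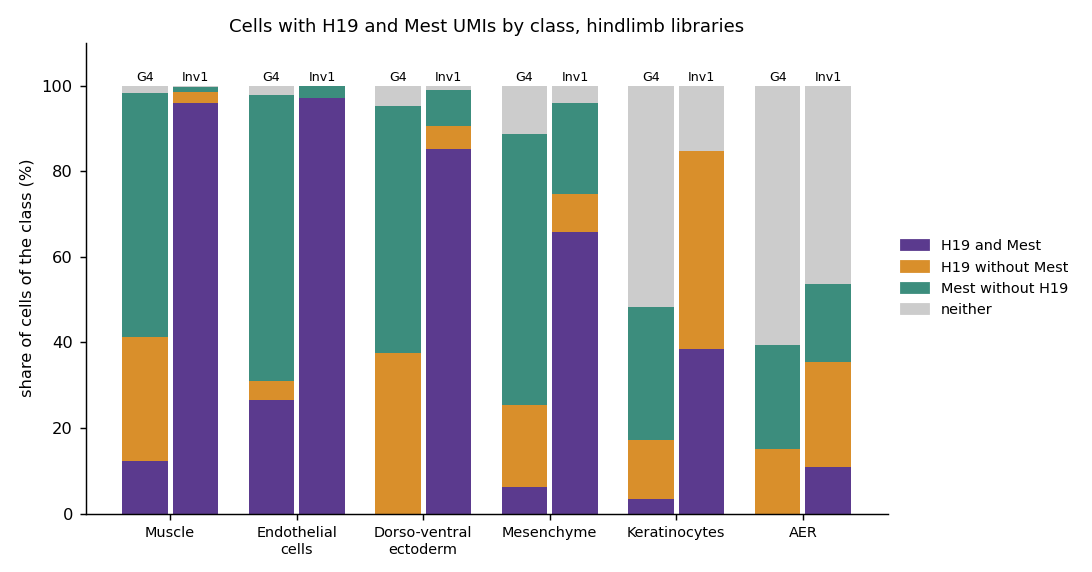
Share of the cells of each class (%) with UMIs of H19 and Mest, of H19 without Mest, of Mest without H19, or of neither, in the G4 (left bar) and Inv1 (right bar) hindlimb libraries. In muscle, endothelial and ectoderm cells the purple segment with both transcripts takes most of the Inv1 bar, and 12.2%, 26.7% and 0% of the G4 bars.

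One gene without a symbol, ENSMUSG00000096768, was lower in Inv1 in all 7 classes and called in 6, with ratios from 0.257 in AER cells to 0.480 in immune cells. In mesenchyme it went from 359 to 145 CPM, a ratio of 0.405 (0.394 to 0.416), and the forelimb ratios ran from 0.363 to 0.488. It did not follow the split by H19 and Mest, since in G4 muscle cells with H19 alone it was 1.04-fold (0.929 to 1.17) of its level in those with Mest alone. Haemoglobin transcripts, a mark of red blood cells, moved in both directions: in mesenchyme Hbb-b1 was 3.12-fold and the embryonic Hbb-bh1 0.527-fold, with 1.10 and 0.297 in the forelimb, and the summed list was at 1057 CPM in Inv1 and 957.3 CPM in G4. Their part in the other differences was not tested, except that the sarcomere median stayed at 0.94 with haemoglobin genes left out of the totals.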

How the data were processed

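Limb buds of stage E11.5 were dissociated with trypsin and sequenced as 10x Genomics single-cell libraries. Per the submitters' processing notes the authors used Cell Ranger 3 with mm9, and mm10 is also named. The deposited values are raw counts of UMIs per gene and cell (median 9110.5 and 8960 UMIs per cell in the G4 and Inv1 hindlimb libraries). Strand use and annotation release are not given in the sources used here. The authors' stated filters were more than 2000 genes, under 10% mitochondrial reads and a Scrublet doublet score up to 0.2. The deposited cells reached down to 1492 genes and hold 0 mitochondrial genes, so the filter of 2000 genes was applied again and no doublet caller was run. Classes were taken from the authors' annotation of the joint matrix. A further 13 per-sample columns were not used.

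Counts were summed per library and class and scaled to the class total. Ratios carry exact conditional binomial 95% intervals, levels exact Poisson and shares exact binomial (Clopper-Pearson) intervals, and all cover counting error only. Cells of 1 library are not replicates. Where 1 library was at 0 UMIs the fold is a bound, with 3 counts put in its place. Named genes were, per direction, the 10 (AER, mesenchyme and muscle cells) or 5 (other classes) ranked by the interval bound nearest to 1 among measured genes (without locus, haemoglobin and sex-linked genes), and members of the lists. The H19 and Mest cell sets and other genes were chosen after their values were seen. The members, the comparison and the 31 gene lists (404 genes, 18 without a row) were chosen with earlier results of these data known. Alternatives were other gene filters, a floor of 50 CPM, a 2-fold limit, a rule on the ratio alone, size factors, totals without haemoglobin genes, means over cells, the hindlimb-only annotation and a marker gate (2 of 6 markers). The code was tested on simulated data. Python 3.11.15, numpy 2.4.6, scipy 1.17.1, pandas 2.3.3 and matplotlib 3.10.9 were used. The values of 1 gene of the myogenic list are not reported here.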

Additional observations from a re-analysis of the deposited data

Results flagged for a closer look

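For 9 genes, each named in a class, the interval of the Inv1 over G4 ratio lay past 1.5-fold in opposite directions in the hindlimb and the forelimb. With 1 library in each group the difference between the limbs was not tested. Ebf1 in dorso-ventral ectoderm was 9.92 in the hindlimb and 0.0596 in the forelimb. Epha3 in mesenchyme was 2.75 and 0.434. Tnrc6c, a component of the microRNA silencing machinery, was 1.88 and 0.497 in mesenchyme. Brd3, a bromodomain protein, was 2.94 and 0.390 in endothelial cells. The other 5 were in immune cells, with 27 Inv1 and 19 G4 cells in the hindlimb and 11 and 13 in the forelimb. The chemokines Ccl4 and Ccl3 were at least 77.7-fold and 39.5-fold higher in the hindlimb and at least 13.7-fold and 14.3-fold lower in the forelimb. The platelet gene Treml1 was at least 32.6-fold lower in the hindlimb and at least 28.1-fold higher in the forelimb. Ppbp was 0.194 in the hindlimb and at least 102-fold higher in the forelimb, and Kalrn 0.0765 and at least 6.07-fold higher. These 9 were drawn from the named genes alone. Of all genes called in immune cells, 8 of the 50 higher and 18 of the 34 lower were called in the opposite direction in the forelimb. In the same direction 5 and 0 were called there.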

How the results depend on the processing

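No paired analysis was possible because each group held 1 library, and no replicate could be left out. The number of genes called fell with a floor of 50 CPM to 37 in AER cells, 8 in dorso-ventral ectoderm, 19 in keratinocytes, 11 in mesenchyme, 24 in muscle, 12 in endothelial and 49 in immune cells, and with a 2-fold limit to 38, 7, 15, 9, 17, 7 and 40. Asking for a ratio past 1.5-fold and an interval without 1 raised it to 394 in AER cells, 398 in dorso-ventral ectoderm, 359 in keratinocytes, 336 in muscle, 488 in endothelial and 386 in immune cells, as the rule is looser. The marker gate gave 104 genes in AER cells. The genes called in 1 direction in every class numbered 1 (H19) over 3000 detected genes and 2 with the looser rule. For the following values the cause was not tested. Fgf8 in AER cells was 0.00994 over 3000 genes and 0.00811 with the marker gate, and in mesenchyme 0.305 over 3000 genes. Fbxw4 in AER cells was 3.58 over 3000 genes, where 19 Inv1 and 5 G4 cells were left. Btrc in keratinocytes was 5.80 with the hindlimb-only annotation, where its call was lost, and 5.68 over 3000 genes. Poll in muscle cells was 1.49 against G4 cells with Mest and without H19, a set chosen after seeing the data. Ppbp and Kalrn in immune cells turned to 2.27 and 1.34 without the cell with the most UMIs in each library. All 21 class-share values, 761 of 782 list medians and 669 of 727 named-gene values under alternatives stayed within the range set for no change. For list medians that range did not ask for a kept sign. The median of the proximal genes in AER cells, at -0.004, took the other sign under 3 settings. So did that of the retinoic acid genes in mesenchyme, at 0.03. None of these was counted as moved, so the tally does not show that list medians kept their sign. The sarcomere median in muscle cells ran from 0.67 (mean over cells) and 0.84 (50 CPM added) to 1.25. Leaving out AER cells with 10 or more mesenchyme markers removed 0 cells. In AER cells Dpcd, with 41 and 15 UMIs, had an interval from 0.60 to 2.15, and a difference within it was not detectable at this depth.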
